A study of Arabidopsis thaliana with 12 samples.

Results

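Calmodulins and calmodulin-like proteins are the small EF-hand calcium sensors of the plant cell. The members described here are the genes whose symbol begins with CAM or CML followed by a number, or whose description names a CML number or a numbered calmodulin. There were 53 such genes among 32833 in the deposited table, 7 calmodulins (CAM1 to CAM7) and 46 calmodulin-like genes, and all 53 matched by symbol. RPKM (reads per kilobase of gene length and per unit of library depth) reached 1 in at least 3 libraries for 29 members, 7 calmodulins and 22 calmodulin-like genes. Those 29 are described and tested, and the other 24 are accounted for below that threshold.

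The series examined the mutant atdamt1 in thermotolerance. Poly(A) RNA came from Arabidopsis thaliana seedlings of accession Col-0 at 10 days of age. The 4 groups of 3 libraries were wild type in control, wild type after heat, atdamt1 in control and atdamt1 after heat. Controls carry the time 0 h and heat libraries 2.5 h. No control held for 2.5 h without heat is named, so heat and elapsed time cannot be told apart. The labels give neither the temperature nor the kind of allele, and nothing in them states that libraries came from separate cultures. The p-values therefore reflect variation among these libraries only, and that variation may be technical. In whole seedlings, fewer cells of a type and less RNA per cell cannot be told apart.

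Calcium rises in plant cells within moments of touch, cold, heat, wounding or attack, and EF-hand proteins turn that rise into altered activity of other proteins. Calmodulins have no activity of their own. On binding calcium they change shape and grip kinases, ion channels, pumps and transcription factors. Calmodulin-like proteins share the EF-hand design with more divergent sequences, and many were first met as genes induced by a stimulus, such as the touch genes TCH2 and TCH3, now CML24 and CML12.

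Each library held 21720000 to 23519000 reads, as recovered from the steps between RPKM values. The homolog of METTL4 (AT1G19340), which the series title names, had an RPKM of 2.50 to 3.10 in wild type control, 1.3 to 1.54 in wild type heat, 0.808 to 1.29 in atdamt1 control and 0.146 to 0.475 in atdamt1 heat. All 5 shoot and 4 root markers passed the threshold, and 0 of 6 flower and seed markers did. The summed RPKM of the root markers, most of it BGLU23, was 1582 to 2059 in wild type control, 184.9 to 443 in wild type heat, 1333 to 2043 in atdamt1 control and 330.5 to 381.6 in atdamt1 heat, so it moved with heat. SCR was also lower after heat in both genotypes, while heat and control libraries overlapped in both for SHR and PHT1-1. The shoot sum ran from 31000 to 43960 over the 12 libraries. Within it RBCS-1A was lower and LHCB2.1 higher after heat in both genotypes. The part of either sum in the heat results was not tested. Heat libraries were uneven in the heat shock gene HSP101, whose RPKM was 1247, 538 and 585 in wild type heat 1, 2 and 3 and 503, 900 and 324 in atdamt1 heat. Chloroplast-encoded genes took 0.32% to 1.07% of summed RPKM in controls, 0.39% to 4.05% in wild type heat and 3.17% to 6.01% in atdamt1 heat. Relative to the library total, the median of all 17628 genes tested shifted with heat by -0.41 (wild type) and -0.44 (atdamt1), as log2(RPKM + 1) differences.

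The 250 bases before the annotated gene start are shown for 6 members on which the heat results turn, from the RefSeq annotation of build TAIR10.1, each written 5′ to 3′ on the gene's own strand, which is the minus strand for all 6. CML44 (chr1:7553976-7554225), CML38 (chr1:28768139-28768388), CML37 (chr5:16943821-16944070) and CML23 (chr1:24771394-24771643) were 4 of the 5 members with the largest rises after heat. CML42 (chr4:11134076-11134325) had the largest fall, and CAM3 (chr3:21036167-21036416) was a calmodulin with no fall in either genotype. Capitals mark GAANNTTC or TTCNNGAA, the paired units of the heat shock element, with their GAA and TTC letters only. They also mark CGCG and CGTGT, letters of the elements bound by the calmodulin-binding CAMTA transcription factors. Both strands were searched.
CML44: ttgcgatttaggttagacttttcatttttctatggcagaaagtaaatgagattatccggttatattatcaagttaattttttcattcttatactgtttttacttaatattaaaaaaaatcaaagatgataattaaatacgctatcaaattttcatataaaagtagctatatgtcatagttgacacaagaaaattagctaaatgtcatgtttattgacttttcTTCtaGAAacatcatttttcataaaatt
CML38: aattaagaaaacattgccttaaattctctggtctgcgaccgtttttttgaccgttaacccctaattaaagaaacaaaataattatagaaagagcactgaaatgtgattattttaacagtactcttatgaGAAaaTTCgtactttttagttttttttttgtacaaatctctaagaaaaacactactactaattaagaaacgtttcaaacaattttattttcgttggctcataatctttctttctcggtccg
CML37: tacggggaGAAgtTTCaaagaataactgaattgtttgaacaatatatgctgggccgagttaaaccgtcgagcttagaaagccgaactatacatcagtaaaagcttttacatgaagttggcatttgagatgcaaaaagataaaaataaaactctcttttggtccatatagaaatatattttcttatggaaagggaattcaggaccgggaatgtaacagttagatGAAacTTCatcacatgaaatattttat
CML23: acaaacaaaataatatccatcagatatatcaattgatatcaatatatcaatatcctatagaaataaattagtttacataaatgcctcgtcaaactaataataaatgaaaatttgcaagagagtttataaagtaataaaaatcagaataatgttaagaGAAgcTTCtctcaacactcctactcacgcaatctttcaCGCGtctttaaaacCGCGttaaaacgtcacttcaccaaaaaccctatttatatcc
CML42: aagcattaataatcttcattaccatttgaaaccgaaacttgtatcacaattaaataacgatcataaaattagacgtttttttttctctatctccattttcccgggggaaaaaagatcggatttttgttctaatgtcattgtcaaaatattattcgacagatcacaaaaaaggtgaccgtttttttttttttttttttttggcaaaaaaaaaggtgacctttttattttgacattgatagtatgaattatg
CAM3: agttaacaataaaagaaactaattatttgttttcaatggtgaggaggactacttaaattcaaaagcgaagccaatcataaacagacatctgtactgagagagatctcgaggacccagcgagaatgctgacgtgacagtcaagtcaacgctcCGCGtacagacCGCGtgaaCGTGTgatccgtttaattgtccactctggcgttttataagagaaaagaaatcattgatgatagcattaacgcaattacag
The window of CML44 held TTCNNGAA once, starting 28 bases before the gene start. CML38 held GAANNTTC once and CML37 held it at 2 places. CML23 held GAANNTTC once and CGCG at 2 places, CAM3 held CGCG at 2 places and CGTGT once, and CML42 held none of these letters. The window of CML12 lies mostly within its upstream neighbour CML10 and is not shown.

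GAANNTTC or TTCNNGAA was present in the windows of 11 of the 29 members (37.9%), and in 15.7% of the 17510 windows of all genes tested. It was present in 6 of the 11 members that rose after heat in wild type (CML23, CML36, CML37, CML38, CML44 and CML50), 1 of the 8 that fell (CML5) and 4 of the 10 that passed neither way (CAM7, CML10, CML16 and CML46). The risers CML9, CML12, CML20, CML24 and CML35 did not hold it. CML37 and CML44 passed the threshold only through heat libraries, and CML11, among those that fell, only through controls. The count over the 29 members and the split by call are therefore descriptions and support nothing. Windows of the members below the threshold were not counted. CGCG or CGTGT was present in 7 of 29 members and 29.3% of all windows, with 5 among the 11 risers and 0 among the 8 that fell. The 2 kinds of letters were counted separately, and CGCG and CGTGT can overlap. A match describes letters in a window and is neither a site nor a cause.

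The calmodulins were abundant in every library, and on the deposited scale none was called higher with heat in wild type. Of the 7, 3 fell (CAM1, CAM4 and CAM5) and 4 passed neither way, against 52.6% of all genes tested called lower and 9.41% called higher. In atdamt1, 5 fell (CAM1, CAM4, CAM5, CAM6 and CAM7) and 2 passed neither way, against 56.2% lower and 10.3% higher. Calls are limma adjusted p-values under 0.05, adjusted over all genes tested, and the shares called show that a fall was the common outcome on this scale. That balance depends on the scaling. With median-of-ratios scaling 28.7% of all genes were called higher and 26.7% lower in wild type, and of the calmodulins 3 were called higher (CAM2, CAM3 and CAM6) and 1 lower (CAM4). In atdamt1 that scaling gave 27.5% higher and 27.2% lower over all genes, and 1 calmodulin higher and 2 lower. The medians of the 7 log2 differences were -0.23 in wild type and -0.50 in atdamt1, beside the medians of all genes given above.

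CAM4 (AT1G66410, chr1:24774113-24775984) had an RPKM of 87.3, 85.5 and 89.2 in wild type control and 51.0, 46.8 and 52.4 after heat. In atdamt1 its RPKM was 70.0, 88.1 and 87.7 in control and 44.6, 52.7 and 43.5 after heat. The groups did not overlap in either genotype, and the mean RPKM after heat was 0.573 of control in each. The log2 difference was -0.79 ± 0.11 (SE, limma adjusted p = 7.07e-05) in wild type and -0.79 ± 0.11 (adjusted p = 6.95e-05) in atdamt1. CAM4 stayed called lower under all 3 scalings of the libraries (deposited, median-of-ratios, quantile) in both genotypes, which in wild type CAM1 and CAM5 did not.

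CAM5 (AT2G27030) had an RPKM of 68.4, 79.8 and 75.9 in wild type control and 45.6, 45.5 and 52.1 after heat. In atdamt1 it had 69.9, 74.3 and 78.0 in control and 43.2, 47.1 and 35.4 after heat. Both heat groups lay wholly below their controls, with log2 differences of -0.64 ± 0.11 (adjusted p = 0.000467) and -0.82 ± 0.11 (adjusted p = 7.14e-05). CAM1 (AT5G37780, chr5:15004466-15006267) had the highest mean RPKM of all members in both control groups. Its RPKM was 150, 153 and 142 in wild type control and 123, 90.9 and 109 after heat. In atdamt1 it was 129, 150 and 139 in control and 93.2, 103 and 84.7 after heat. Again the groups were apart, and the log2 differences were -0.47 ± 0.12 (adjusted p = 0.0045) in wild type and -0.57 ± 0.12 (adjusted p = 0.00119) in atdamt1. CAM1's fall is close to the median of all genes, and in wild type it turned to 0.04 with median-of-ratios scaling. In atdamt1 it was -0.04 with that scaling and was not called (limma adjusted p = 0.798).

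CAM3 (AT3G56800) is paired in the deposited table with the symbol CAM5 and named CAM3 here after RefSeq. Work in Arabidopsis has placed CAM3 in heat shock signalling. Its RPKM was 117, 137 and 129 in wild type control and 143, 146 and 139 after heat, so the wild type heat libraries lay above the controls by a small margin. In atdamt1 it was 114, 125 and 131 in control and 135, 120 and 112 after heat, with overlap. The log2 differences were 0.16 ± 0.10 (adjusted p = 0.165) and -0.01 ± 0.10 (adjusted p = 0.909), so no change was called on the deposited scale in either genotype. With median-of-ratios scaling they became 0.68 (adjusted p = 0.000285) and 0.52 (adjusted p = 0.00159), which turns the direction in atdamt1.

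CAM6 (AT5G21274) had an RPKM of 72.2, 83.3 and 78.1 in wild type control and 75.6, 62.7 and 72.8 after heat. The atdamt1 values were 72.5, 83.8 and 77.1 in control and 69.0, 55.8 and 60.9 after heat. CAM6 overlapped in wild type (log2 difference -0.15 ± 0.11, adjusted p = 0.26) and fell in atdamt1 (-0.33 ± 0.11, adjusted p = 0.019), a call lost without atdamt1 control 2 (adjusted p = 0.0733) or atdamt1 heat 2 (0.0767). CAM7 (AT3G43810), which in Arabidopsis also binds the promoters of light-responsive genes, had an RPKM of 57.1, 67.0 and 51.7 in wild type control and 52.8, 46.9 and 49.0 after heat. Libraries of atdamt1 gave 53.5, 68.9 and 53.4 in control and 46.6, 43.6 and 33.7 after heat. It fell in atdamt1 (-0.50 ± 0.14, adjusted p = 0.00967) and not in wild type (-0.23 ± 0.14, adjusted p = 0.183). The differences between the genotypes' heat responses were -0.18 ± 0.15 for CAM6 and -0.27 ± 0.20 for CAM7 (limma adjusted p = 0.979 for both), and median-of-ratios scaling turns the direction of both genes in both genotypes.

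CAM2 (AT2G41110) had an RPKM of 36.4, 43.0 and 35.8 in wild type control and 42.5, 30.5 and 42.8 after heat. Its RPKM in atdamt1 was 36.1, 48.3 and 31.8 in control and 33.5, 35.0 and 27.6 after heat. The groups overlapped in both genotypes, and neither was called on the deposited scale (adjusted p = 0.989 and 0.212). With median-of-ratios scaling CAM2 was called higher in wild type (0.50, adjusted p = 0.0207), as was CAM6 (0.36, adjusted p = 0.0167). Opposite-strand genes cover 47.6% of CAM2's exon length, so its level is uncertain.

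**Figure D1:**
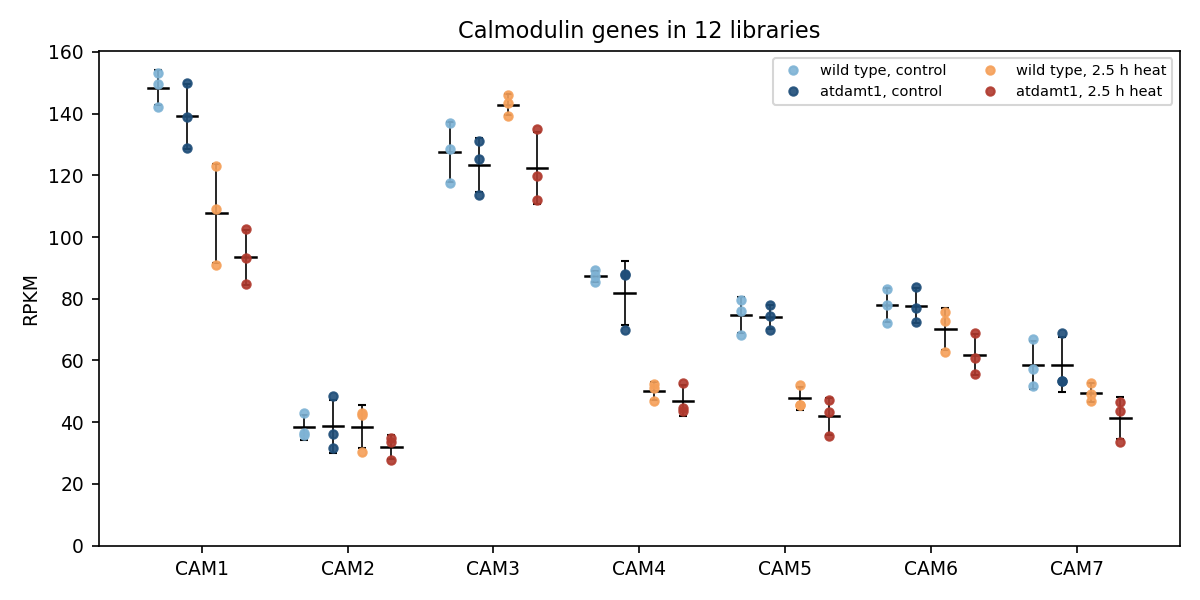
RPKM of the 7 calmodulins in the 12 libraries by group, with points for libraries, horizontal marks for group means and vertical bars for the SD. CAM4 and CAM5 sit lower after heat in both genotypes and CAM3 does not; with median-of-ratios scaling the heat direction of CAM1 in wild type, of CAM3 in atdamt1, and of CAM2, CAM6 and CAM7 in both genotypes turns.

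Coding sequences of the 7 calmodulins were alike but distinguishable. Over the 21 pairs, identity was 82.7% to 91.3%, with a longest shared run of 17 to 41 bases. The pair most alike was CAM2 and CAM3. Pairs with a calmodulin-like gene reached at most 79.0% (CML23 with CML24). How the authors' counting treated reads that fit more than 1 of them is not given in the sources used here.

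Calmodulin-like genes moved in both directions, and the largest changes of the family were rises. Of the 22 that passed, 11 rose, 5 fell and 6 passed neither way with heat in wild type, where 9.41% of all genes were called higher and 52.6% lower. In atdamt1, 11 rose, 7 fell and 4 passed neither way, where 10.3% of all genes were called higher and 56.2% lower. Median-of-ratios scaling called 14 of them higher and 2 lower in wild type, and 12 and 3 in atdamt1, beside the all-gene shares given for that scaling above. The same 11 rose in both genotypes (CML9, CML12, CML20, CML23, CML24, CML35, CML36, CML37, CML38, CML44 and CML50), and all 11 stayed called higher under the 3 scalings in both. The medians of the 22 log2 differences were 0.39 in wild type and 0.34 in atdamt1. A gene could pass through heat libraries alone, as CML37 did, or through controls alone, as CML11 did. CML44 also needed its heat libraries to pass, because atdamt1 control 3 was its only control at an RPKM of 1. These counts therefore do not stand for all 46 calmodulin-like genes.

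CML44 (AT1G21550, chr1:7552987-7553975) went from a low level, with 7 to 30 reads in each control library, to the level of a calmodulin. Its RPKM was 0.326, 0.321 and 0.783 in wild type control and 159, 98.2 and 102 after heat. In atdamt1 it was 0.473, 0.448 and 1.39 in control and 79.4, 90.8 and 57.1 after heat. Every heat library was far above every control, with mean RPKM 251-fold higher in wild type and 98.2-fold higher in atdamt1. Control values rest on few reads, so these ratios are imprecise. The log2(RPKM + 1) differences, which understate the change of genes with low values, were 6.33 ± 0.25 (adjusted p = 1.17e-08) and 5.45 ± 0.25 (adjusted p = 3.46e-08). CML44 reached an RPKM of 1 in 7 libraries, and atdamt1 control 3 was the only control among them. It therefore passed only where it was high. These differences are a description, and its place among the members called higher supports nothing.

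CML12 (AT2G41100, the touch gene TCH3, chr2:17137037-17139700) had the highest mean RPKM of all members in both heat groups. Its RPKM was 21.9, 28.3 and 26.1 in wild type control and 506, 343 and 356 after heat. In atdamt1 it was 26.7, 29.3 and 27.3 in control and 366, 351 and 275 after heat. The groups were wide apart, with mean RPKM 15.8-fold and 11.9-fold higher after heat. The log2 differences were 3.91 ± 0.16 (adjusted p = 1.45e-08) in wild type and 3.52 (adjusted p = 3.46e-08) in atdamt1. Opposite-strand genes cover 20.2% of its exon length.

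CML38 (AT1G76650) and CML37 (AT5G42380) are related genes known from wounding, and CML38 also from low oxygen. CML38 had an RPKM of 1.3, 0.958 and 0.871 in wild type control and 24.4, 15.8 and 15 after heat. For atdamt1 the RPKM was 1.63, 2.05 and 1.16 in control and 17.3, 19.2 and 10.0 after heat. The log2 differences were 3.22 ± 0.24 (adjusted p = 7.85e-07) and 2.63 ± 0.24 (adjusted p = 3.10e-06), with no overlap of groups. CML37 was almost silent before heat, with 0 to 5 reads in each of the 6 control libraries. After heat its RPKM was 9.29, 1.46 and 2.82 in wild type and 2.93, 3.28 and 1.11 in atdamt1. CML37 reached an RPKM of 1 in the 6 heat libraries and no other, so it passed only where it was high. Its log2 differences of 2.09 ± 0.42 in wild type and 1.64 ± 0.42 in atdamt1 are a description, and its place among the members called higher supports nothing.

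CML23 (AT1G66400) and CML24 (AT5G37770, the touch gene TCH2) are close relatives that act together in nitric oxide and flowering time control in Arabidopsis. CML23 had an RPKM of 1.04, 0.697 and 1.82 in wild type control and 13.5, 4.60 and 9.51 after heat. The mutant had 0.959, 1.27 and 1.46 in control and 9.01, 8.26 and 3.74 after heat. The log2 differences were 2.15 ± 0.35 (adjusted p = 0.00023) and 1.77 ± 0.35 (adjusted p = 0.000837), and the groups did not overlap. CML24 had an RPKM of 9.17, 10.9 and 11 in wild type control and 29.9, 17.9 and 23.5 after heat. In atdamt1 it had 11.2, 13.5 and 10.9 in control and 21.6, 22.5 and 13.1 after heat. CML24 was apart in wild type (1.10 ± 0.21, adjusted p = 0.000705), but in atdamt1 heat 3 lay among the controls (0.61 ± 0.21, adjusted p = 0.0217). That call was lost without atdamt1 control 1 or 3 or heat 1 or 2, with adjusted p up to 0.0862. An opposite-strand gene covers 20.9% of its exon length.

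CML9 (AT3G51920), a modulator of abscisic acid and pathogen responses, had an RPKM of 22.7, 36.8 and 40.4 in wild type control and 63.5, 62.7 and 67.5 after heat. The atdamt1 values were 23.1, 25.6 and 28.1 in control and 58.8, 50.2 and 57.2 after heat. Heat libraries were higher throughout, with log2 differences of 0.97 ± 0.17 (adjusted p = 0.000434) and 1.09 ± 0.17 (adjusted p = 0.000185). CML35 (AT2G41410) had an RPKM of 40.7, 26.7 and 36.9 in wild type control and 73.4, 52.2 and 65.4 after heat. Libraries of atdamt1 gave 26.0, 36.6 and 24.9 in control and 41.6, 52.7 and 45.1 after heat. These groups were also apart, with log2 differences of 0.86 ± 0.19 (adjusted p = 0.00191) and 0.67 ± 0.19 (adjusted p = 0.00836). The other 3 that rose, CML20, CML36 and CML50, had log2 differences of 0.23 to 0.63 in wild type and 0.36 to 0.54 in atdamt1. CML36, which in Arabidopsis interacts with the calcium pump ACA8, overlapped with its controls in wild type. The calls of CML36 and CML20 were marginal. CML36 lost its call in wild type without control 2 or 3 or heat 2 or 3 (adjusted p up to 0.125), and in atdamt1 without any of atdamt1 control 1, 2 or 3, atdamt1 heat 1 or 2, wild type control 2 or wild type heat 3 (up to 0.157). CML20 lost its call in wild type without wild type control 2 or 3, any wild type heat library or atdamt1 control 2 (up to 0.126), and kept it in atdamt1 without any 1 library.

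**Figure D2:**
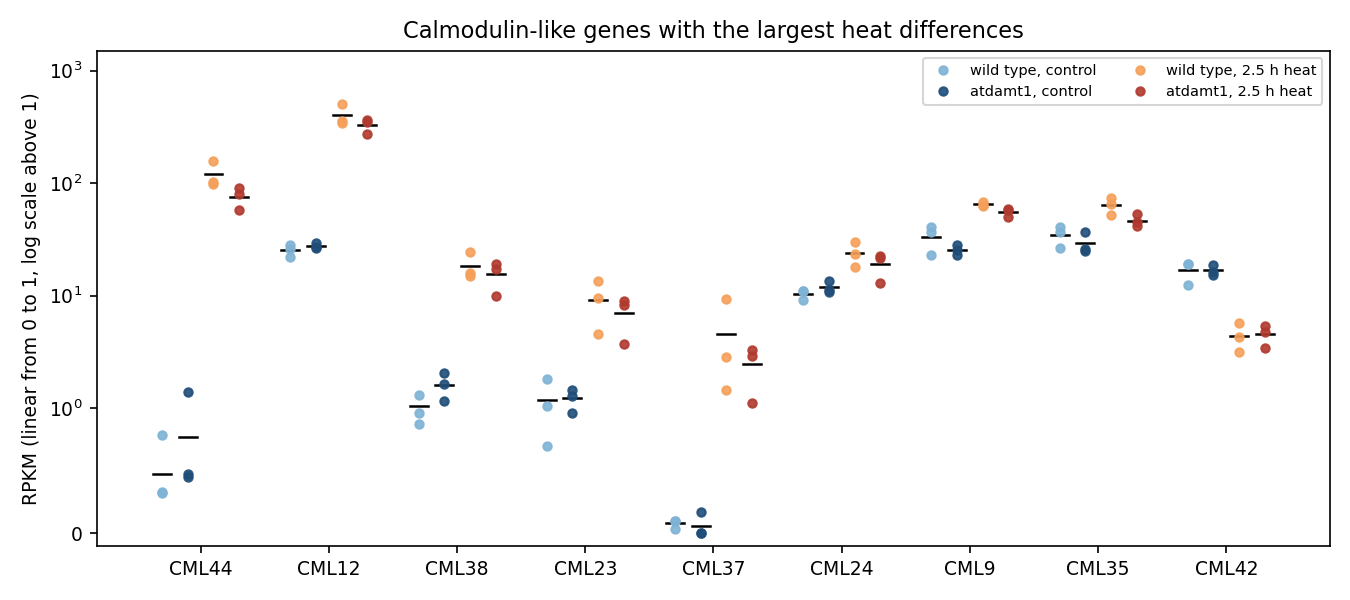
RPKM (linear from 0 to 1, log scale above) of the 8 calmodulin-like genes with the largest rises and of CML42, which had the largest fall, with points for the 12 libraries and horizontal marks for group means. CML44 and CML12 are higher in all heat libraries of both genotypes, and CML42 is lower in all of them.

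The rises were not even over the heat libraries. Wild type heat 1 had the highest RPKM of its group for 9 of the 11 genes that rose, and atdamt1 heat 3 the lowest of its group for 8 of the 11. The same libraries had the highest (1247) and lowest (324) HSP101 RPKM of their groups, and the part of that unevenness in these values was not tested.

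The genes that fell were led by CML42. CML42 (AT4G20780), known for its part in leaf hair branching and defence against herbivores, had an RPKM of 12.3, 18.9 and 19.0 in wild type control and 3.19, 4.27 and 5.73 after heat. For atdamt1 the RPKM was 16.3, 15.3 and 18.7 in control and 5.37, 4.79 and 3.40 after heat. The groups were apart, the mean RPKM after heat was 0.262 of control in wild type and 0.269 in atdamt1, and the log2 differences were -1.72 ± 0.21 (adjusted p = 2.53e-05) and -1.70 ± 0.21 (adjusted p = 2.68e-05). It stayed called lower under the 3 scalings in both genotypes.

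CML18 (AT3G03000), which in Arabidopsis binds the vacuolar sodium/proton exchanger NHX1, had an RPKM of 13.8, 19.0 and 21.6 in wild type control and 7.59, 9.36 and 10.3 after heat. The mutant had 14.1, 19.8 and 18.2 in control and 11.1, 10.12 and 8.42 after heat. Heat lay below control in both, with log2 differences of -0.91 ± 0.18 (adjusted p = 0.000841) and -0.75 ± 0.18 (adjusted p = 0.00283). CML5 (AT2G43290) had an RPKM of 12.5, 14.3 and 22.5 in wild type control and 6.36, 8.50 and 10.2 after heat. In atdamt1 it had 13.6, 14.4 and 18.5 in control and 9.12, 7.44 and 7.59 after heat. The groups of CML5 were again apart (-0.88 ± 0.21, adjusted p = 0.00327, and -0.86 ± 0.21, adjusted p = 0.00347).

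CML27 (AT1G18210) had an RPKM of 48.5, 44.2 and 50.8 in wild type control and 30.9, 24.2 and 34.0 after heat. The atdamt1 values were 41.8, 45.2 and 53.0 in control and 24.1, 26.5 and 25.5 after heat. Its falls were -0.68 ± 0.13 (adjusted p = 0.000674) and -0.85 ± 0.13 (adjusted p = 0.000131), with no overlap. CML11 (AT3G22930) was the member at the threshold, with an RPKM of 1 in exactly 3 libraries. Its RPKM was 2.12, 0.993 and 1.72 in wild type control, 0.660, 0.421 and 0.477 after heat, 0.722, 0.996 and 1.08 in atdamt1 control and 0.141, 0.277 and 0.419 after heat. Those 3 were all control libraries, so CML11 passed only where it was high. Its log2 differences of -0.76 ± 0.17 in wild type and -0.60 ± 0.17 in atdamt1 are a description, and its place among the members called lower supports nothing. Of the 8 members that fell in wild type, CAM4 and CML42 alone stayed called lower under the 3 scalings, and in atdamt1 CAM4, CAM5, CML27 and CML42 did.

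**Figure D3:**
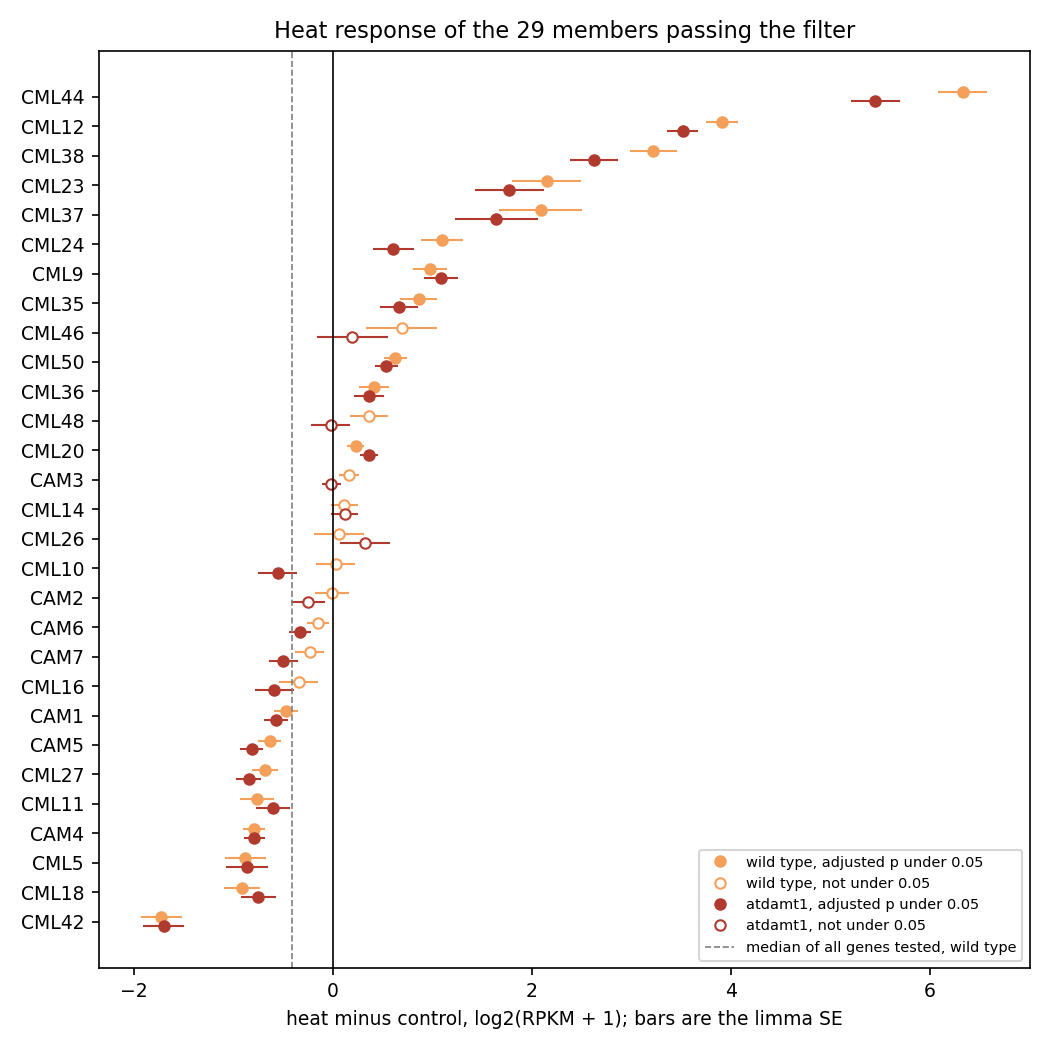
Heat minus control as log2(RPKM + 1) difference for the 29 members in wild type and atdamt1, with limma SE bars, filled points for adjusted p under 0.05 and a dashed line at the wild type median of all genes tested. CML44, CML12 and CML38 lie highest and CML42 lowest in both genotypes; the values of CAM1 (wild type), CAM2, CAM3 (atdamt1), CAM6 and CAM7 turn direction with median-of-ratios scaling.

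Over both kinds together, 11 of 29 members rose, 8 fell and 10 passed neither way in wild type, with 62% of all genes tested called in either direction. In atdamt1, 11 rose, 12 fell and 6 passed neither way, with 66.5% of all genes called. The 8 that fell in wild type also fell in atdamt1, and 4 more were called in atdamt1 alone (CAM6, CAM7, CML10 and CML16). The falls of CML10 and CML16 were lost without atdamt1 control 2 (adjusted p = 0.0828 and 0.0688) or atdamt1 heat 3 (0.114 and 0.0878), while CML16 was called lower in wild type too without wild type heat 1 (0.0364). With the chloroplast-encoded share in the fit, 3 members rather than 12 were called lower in atdamt1. The share of all genes called lower in that fit is not given here, so this drop cannot be read as particular to the members. CML10 had log2 differences of 0.03 ± 0.19 in wild type and -0.55 ± 0.19 in atdamt1, and the difference between them was -0.58 ± 0.27 (limma adjusted p = 0.979). Heat groups lay wholly above control for 1 calmodulin and 10 calmodulin-like genes in wild type (11% of all genes tested) and wholly below for 3 and 5 (56%). In atdamt1 the counts were 0 and 10 above (11.4% of all genes) and 5 and 7 below (58.6%).

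After heat the calmodulin-like genes, not the calmodulins, held most of the family's summed RPKM. The summed RPKM of the 7 calmodulins was 612.9 ± 31.6 (SD, n = 3) in wild type control and 506.9 ± 33.7 after heat, and 593.7 ± 47.2 and 439.9 ± 36.5 in atdamt1. The summed RPKM of the 46 calmodulin-like genes was 335.8 ± 35.0 in wild type control and 915.3 ± 162 after heat, and 319.8 ± 22.0 and 737.6 ± 87.0 in atdamt1. In every control library the calmodulin sum was the larger, and in every heat library the calmodulin-like sum was. CML12 alone made up 7.59% of the calmodulin-like sum in wild type control and 43.7% after heat, and 8.70% and 44.7% in atdamt1. Without CML12 and CML44 the remaining 44 summed to 309.9 ± 33.0 and 393.9 ± 42.6 in wild type, and 291.2 ± 20.8 and 331.3 ± 23.0 in atdamt1. No test was made on these sums. They count CML2, CML4, CML13, CML15 and CML30 as 0, which is no measure of the expression of these genes under an opposite-strand gene. Opposite-strand genes also cover 20.2% of the exon length of CML12 and 47.6% of that of CAM2, so both sums are uncertain.

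**Figure D4:**
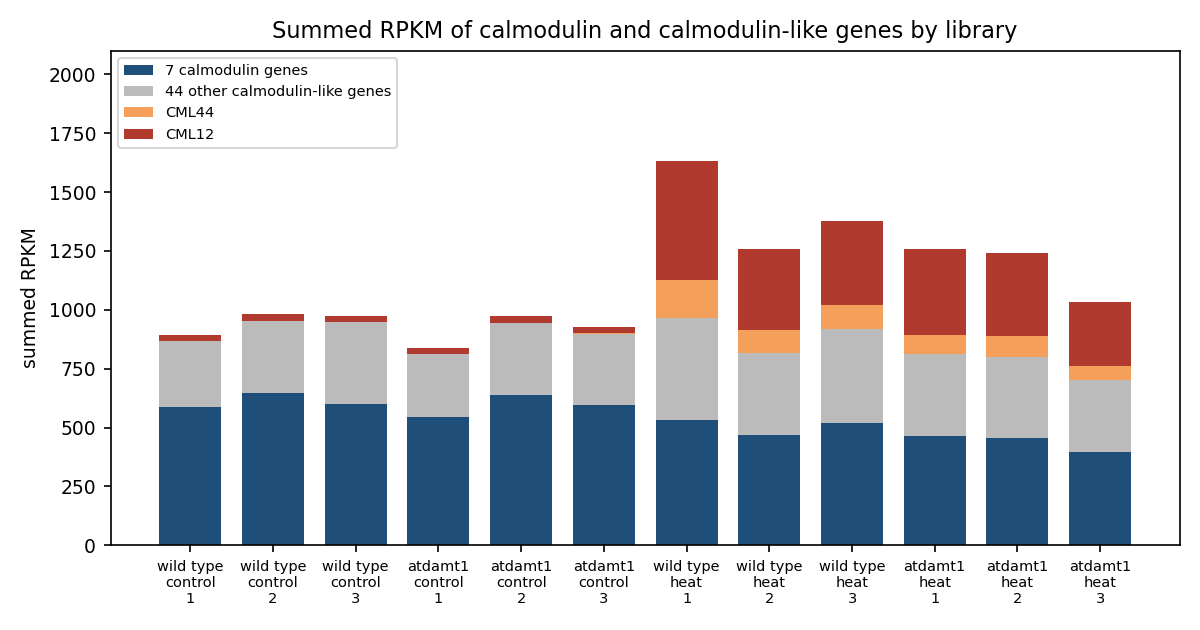
Summed RPKM in each of the 12 libraries, stacked as the 7 calmodulins, the 44 other calmodulin-like genes, CML44 and CML12. The calmodulin-like parts together exceed the calmodulins in all 6 heat libraries and in none of the 6 controls. CML2, CML4, CML13, CML15 and CML30, which lie under an opposite-strand gene, count as 0.

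Several members lie side by side. CML10, CML12 and CAM2 follow each other on the plus strand of chromosome 2 with gaps of 37 and 482 bases and no gene between. Of the 3, CML12 alone was called in wild type on the deposited scale, and with median-of-ratios scaling CML10 (adjusted p = 0.0446) and CAM2 (0.0207) were called higher too. CML23 lies 2719 bases from CAM4 on the minus strand of chromosome 1, and CML24 lies 4846 bases from CAM1 on the minus strand of chromosome 5, with no gene between. In both pairs the calmodulin-like gene rose while the calmodulin fell in both genotypes on the deposited scale. With median-of-ratios scaling CAM1's direction turned in wild type, and its fall in atdamt1 was not called. CML39, 883 bases from CML38, never reached an RPKM of 1.

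**Figure D5:**
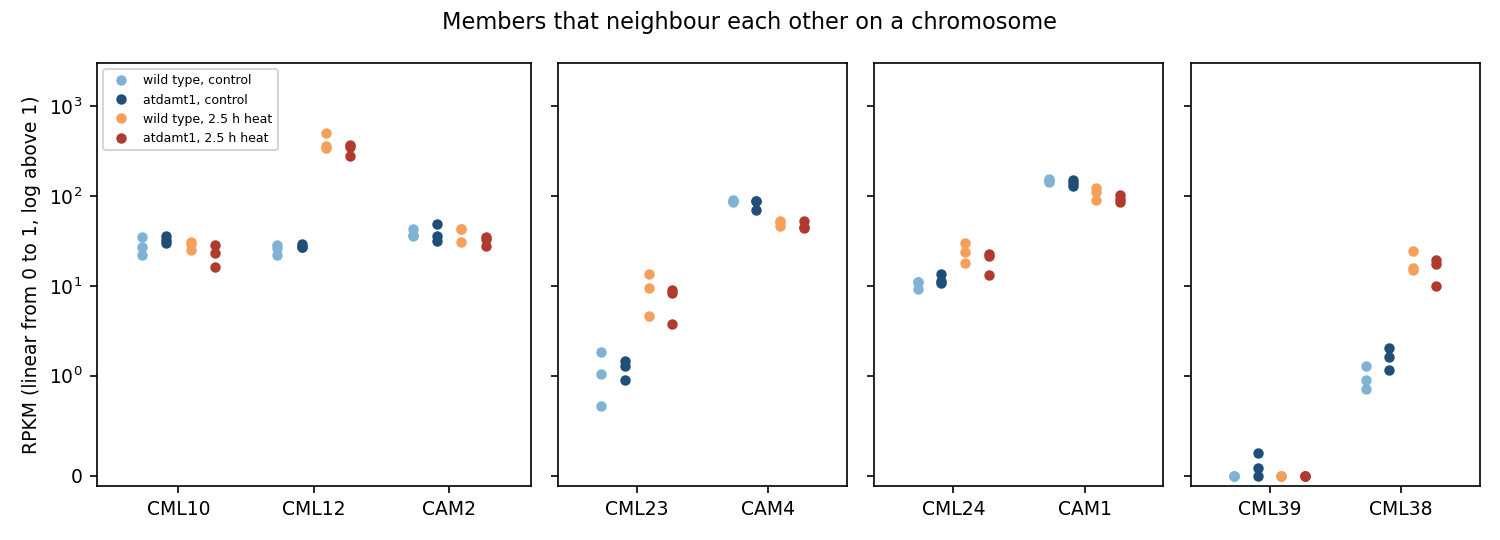
RPKM (linear from 0 to 1, log scale above) of members that neighbour each other on a chromosome, 1 panel a cluster, with points for the 12 libraries by group. CML12, CML23 and CML24 are higher after heat, beside CAM2, which shows no clear shift, and CAM4 and CAM1, which are lower. With median-of-ratios scaling CAM1 turns direction in wild type and is not called in atdamt1, and CAM2 turns direction in both genotypes.

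The mutation was tested at each treatment and for the heat response. By limma, 0 of 29 members were called between atdamt1 and wild type in control (2 at an unadjusted p under 0.05), where 0.0113% of all genes were called. After heat 0 of 29 were called (3 unadjusted), and for the difference between the heat responses 0 of 29 (1 unadjusted), with 0% of all genes called in each. Over all genes tested, 816, 1326 and 596 had an unadjusted p under 0.05. A missed threshold does not show that the genotypes act alike.

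The member with the smallest p in control was CML20 (AT3G50360), a relative of the centrins. CML20 had an RPKM of 31.5, 28.7 and 27.3 in wild type control and 24.7, 23.7 and 21.7 in atdamt1 control, so every mutant library was lower. The log2 difference was -0.31 ± 0.09 (limma adjusted p = 0.935). After heat and for the difference between responses, the member was CML44. Its mean RPKM after heat was 119.6 ± 33.8 (SD, n = 3) in wild type and 75.8 ± 17.1 in atdamt1, with no overlap. The log2 difference after heat was -0.64 ± 0.25 (adjusted p = 0.663), and the difference between responses was -0.88 ± 0.35 (adjusted p = 0.979). Adding the share of chloroplast-encoded RPKM to the fit gave -0.22 and -0.45 instead. That share was 0.39% to 4.05% in wild type heat and 3.17% to 6.01% in atdamt1 heat, with overlap. Its part in the CML44 values was not tested.

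On the deposited scale, 26 of 29 members (89.7%) had a negative genotype difference after heat, as did 70.8% of all genes. In control it was 19 members (65.5%) and 68.2% of all genes, and for the difference between responses 20 members (69%) and 54.6%. The median genotype difference of all genes after heat was -0.083 on this scale and 0.0016 with median-of-ratios scaling. These direction counts therefore depend on the scale, and they are not given for the other scalings. The genotypes did not overlap for 2 calmodulin-like genes in control (CML14 and CML20, both lower, 7.65% of all genes; 0 members were higher, 2.18% of all genes) and for 7 members after heat (CAM3, CAM7, CML9, CML11, CML20, CML44 and CML50, all lower, 11.7% of all genes; 0 were higher, 1.74% of all genes).

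The 24 members below the threshold divided into 11 listed at 0 in all libraries and 13 with some signal. Of those 13, 9 never reached an RPKM of 1, and CML41, CML43, CML45 and CML47 did in 1 or 2 libraries. Just outside the threshold, CML43 had a highest RPKM of 1.65 and CML47 of 1.07. Of the 11 at 0, CML2, CML4, CML13 and CML30 lie wholly and CML15 almost wholly (97.5%) under an opposite-strand gene. Across the table, 92.7% of genes with at least 99% of their exon length under another gene were listed at 0 in all libraries, against 24.2% of those with under 1%. A value of 0 for these 5 genes is therefore no measure of their expression. CML3, CML7, CML29, CML31, CML32 and CML34 had no such overlap.

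Other genes of calcium signalling, taken as a list of pumps, channels, kinases and calmodulin targets, were counted beside the members. Of 164 such genes, 115 passed. In wild type 10 rose, 73 fell and 32 passed neither way (median log2 difference -0.52). Of all genes there, 9.41% were called higher and 52.6% lower. In atdamt1 the counts were 12, 73 and 30 (median -0.51), where 10.3% of all genes were called higher and 56.2% lower. With median-of-ratios scaling they were 23 higher and 36 lower in wild type and 26 higher and 31 lower in atdamt1. Of 8 glutamate receptor-like channels 8 fell in wild type on the deposited scale, 6 were called lower with median-of-ratios scaling and 4 with quantile normalization. Of 13 cyclic nucleotide-gated channels the counts called lower were 12, 7 and 6, and in neither family was a gene called higher in wild type under these scalings. Over all genes tested, quantile normalization called 22.7% higher and 26.5% lower in wild type. The all-gene shares for the other scalings are given above. GLR1.1 went from a mean RPKM of 7.23 to 1.06 (log2 difference -1.98, adjusted p = 6.34e-06). Of 7 ACA calcium pumps 1 rose and 5 fell in wild type on the deposited scale. Of 6 CAX exchangers 0 rose and 5 fell. With median-of-ratios scaling 2 pumps were called higher and 3 lower, and 0 exchangers higher and 3 lower. The vacuolar calcium exchanger CAX1 went from 95.7 to 34.7 (-1.38, adjusted p = 0.000299). Of 23 calcium-dependent protein kinases 3 rose and 13 fell on the deposited scale, and with median-of-ratios scaling 8 were called higher and 6 lower. Of 22 CIPK genes, kinases partnered by calcineurin B-like sensors, 2 rose and 11 fell in wild type on the deposited scale. With median-of-ratios scaling 4 were called higher and 4 lower. Among them CIPK6 went from 77.5 to 27.3 (-1.49, adjusted p = 1.28e-05). CAMTA3, a calmodulin-binding transcription factor that restrains immunity genes, rose from 7.11 to 11.7 (0.63, adjusted p = 0.00502). Of the 4 CAMTA genes that passed, 1 was called higher in wild type, 1 lower and 2 neither way. The CBP60 family of calmodulin-binding proteins went more upward than the other lists. Of its 5 genes that passed, 2 were called higher and 1 lower in wild type, and 4 higher and 1 lower in atdamt1.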

How the data were processed

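Poly(A) libraries were made with a strand-keeping kit, per the labels' protocols. The deposited table gives RPKM values made by the authors; STAR, DESeq2 and the build TAIR10 are named without a role, per the submitters' processing notes. How reads were counted, with which strand setting and on which annotation, is not given in the sources used here, so genes that overlap others are uncertain. RPKM times exon length in RefSeq TAIR10.1 gave whole reads within 0.1 reads for 99.1% of 24599 genes, so depth was read from the steps between values. A fold change is relative to the library total.

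The 17628 genes that reached an RPKM of 1 in 3 or more of 12 libraries were fitted together as log2(RPKM + 1) with limma 3.58.1 in R 4.3.3 (1 mean per group, mean-variance trend, two-sided, Benjamini-Hochberg adjustment over all genes tested, threshold 0.05). The 5 contrasts compared heat with control within each genotype, the genotypes in control and after heat, and the heat responses of the genotypes against each other. The fit was tested on simulated data. Sequences, overlaps and identities were computed in Python 3.11.15 with Biopython 1.88 (pandas 2.3.3, numpy 2.4.6), and figures with matplotlib 3.10.9. Values in every library are given for each calmodulin, for up to 8 calmodulin-like genes with the largest rise and 8 with the largest fall, for the member with the smallest p where no genotype call was made, and for the highest mean of each group. The members, the lists and this rule were chosen with earlier results of these data known. Alternatives were other pseudocounts, filters, scalings, a replicate block, no trend, library weights, a chloroplast covariate, fits of the compared groups alone, and leaving out each library. Samples were grouped by their labels. No label states that replicate numbers pair the samples, so the main fit had no replicate block.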

Additional observations from a re-analysis of the deposited data

How the results depend on the processing

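The counts of members called after heat kept within 1.5 times of 11 higher and 8 lower in wild type and of 11 higher and 12 lower in atdamt1, except as follows. Under median-of-ratios scaling, 17 members were higher and 3 lower in wild type, and 5 lower in atdamt1. Quantile normalization gave 5 lower in atdamt1, where it called 29.4% of all genes lower and 23% higher. The chloroplast-encoded share as a covariate gave 3, and the share of all genes called in that fit is not given here. Leaving out each library gave 9 to 12 higher and 8 to 9 lower in wild type, and 9 to 11 higher and 9 to 12 lower in atdamt1. With a replicate block the counts were 11 higher and 8 lower in wild type, and 10 higher and 12 lower in atdamt1. Correlations between same-numbered libraries ran from -0.425 to 0.527 over 18 pairs, with 6 over 0.1 and 6 negative. Such a mix does not decide whether some numbers mark a shared batch. All genotype counts were 0 under every alternative run. Direction turned for these log2 differences. With median-of-ratios scaling they were, in wild type, 0.043 for CAM1, 0.499 for CAM2, 0.362 for CAM6 and 0.275 for CAM7, and in atdamt1, 0.274 for CAM2, 0.522 for CAM3, 0.205 for CAM6 and 0.0329 for CAM7. CAM2 in wild type was 0.185 with quantile normalization, 0.0436 with library weights, 0.1 with the chloroplast covariate, 0.0786 without wild type control 2 and 0.154 without wild type heat 2 (range over the libraries left out -0.0848 to 0.154). CAM2 in atdamt1 was 0.0193 with quantile normalization and 0.197 with the covariate. CAM3 in atdamt1 was 0.191 with quantile normalization, 0.0312 with library weights, 0.0306 without atdamt1 control 3 and 0.0468 without atdamt1 heat 3 (range -0.0868 to 0.0468). The causes were not tested. With 3 libraries a group, small differences were not detectable, and genes with few reads, such as CML37 and CML44 in control, have imprecise ratios.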
